A study of Rattus norvegicus with 8 samples.

Results

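The mitosis genes are 42 genes active in the G2 and M phases of the cell cycle. Like the other gene lists below, they were chosen by symbol from textbook roles with earlier results of these data known. Of the 42 genes, 41 had a row among the 30240 rows of the deposited expression table, and the expression of Cks2 was not analysed here. They were followed in SF2 cells, a dental epithelial line from the growing end of the rat mandibular incisor. AmeloD-overexpressing cells (AmeloD, encoded by Ascl5, is a dental epithelial transcription factor of the basic helix-loop-helix family) were set against Control cells. Libraries with the TGF label were set against libraries with the N label, and libraries with the plasmid label pCMV6.ODAM against libraries with pCMV6. Odam encodes odontogenic ameloblast-associated protein, made by maturing ameloblasts. The 8 combinations of genotype, plasmid and TGF label had 1 library each, so each label stood on 4 libraries, with no replicate of any combination. What N and TGF stand for, any dose or time, and the vector that drives AmeloD are not spelled out in the labels. The sources used here do not say whether a line was 1 clone or whether libraries came from separate cultures, so the p-values measure the spread between these libraries, which may be in part technical.

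A cell enters mitosis when cyclin B bound to CDK1 is switched on by CDC25 phosphatases. Polo-like and Aurora kinases then build the spindle, kinetochores tie chromosomes to its microtubules, and the spindle checkpoint holds the anaphase-promoting complex until each chromosome is attached. Cyclins are then destroyed and the cell is divided by an actomyosin ring. Many of these genes are transcribed late in the cycle, so in a mixed culture their mRNA is commonly used as a readout of dividing cells. In the incisor, dividing epithelial cells lie in the cervical loop and transit-amplifying zone, and division ceases as ameloblasts form. In these bulk libraries, fewer cells in mitosis and less mRNA per cell cannot be told apart.

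Levels are given as CPM, reads scaled to a library total of 10568146 to 17775226 reads, and the 4 AmeloD libraries were shallower than the 4 Control libraries. The table held 15.6% to 17.5% of each total, and the mitosis genes held 1797 to 4457 reads per library. A gene with 0 reads may lie up to 3 reads, or 0.169 to 0.284 CPM. As checks of the labels, Ascl5 was listed with 0 reads in every library, a 3' tag count that need not cover a transgene. Odam had 4 reads in the pCMV6.ODAM libraries against 0 in the pCMV6 libraries of AmeloD cells, and 27 against 1 in Control cells, so the plasmid label rests on few reads in AmeloD. Pmepa1, a TGF-beta target, had 446 reads in the TGF libraries against 5 in the N libraries. Of 12 dental epithelium markers 9 had a row, and they summed to 733 to 841 CPM in AmeloD and 501 to 642 CPM in Control libraries, while the enamel genes Amelx, Ambn and Enam had 0 reads.

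The sequences around the start sites are shown because the late cell cycle promoter is a known class in human and mouse cells. Its elements are the cell cycle genes homology region (CHR), bound by the MuvB-based DREAM complex, and CCAAT boxes, bound by NF-Y. RefSeq promoters (build GRCr8, 250 bases before to 50 after each start) were found for 37 of the 42 genes, Cks2 among them, 38 promoters in all, and Aurkb, Ube2c, Tpx2, Ccna2 and Nudc had no entry. The letters searched on both strands were TTTGAA or TTCGAA for the CHR and CCAAT for the box. The 200 bases before the start are given below for the 6 genes with an entry that fell in AmeloD libraries, with matches in capitals, 5' to 3' along the gene: Anln at chr8:29197514-29197713 (minus strand), Mki67 at chr1:199952594-199952793 (minus strand), Spc25 at chr3:74396719-74396918 (minus strand), Tacc3 at chr14:81289699-81289898 (minus strand), Ccnb1 at chr2:33655226-33655425 (minus strand) and Stmn1 at chr5:151964979-151965178 (plus strand).
Anln: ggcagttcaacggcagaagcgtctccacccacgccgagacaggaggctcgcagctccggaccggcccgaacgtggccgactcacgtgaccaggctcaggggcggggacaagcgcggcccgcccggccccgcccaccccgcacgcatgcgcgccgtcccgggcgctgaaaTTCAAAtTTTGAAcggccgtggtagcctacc
Mki67: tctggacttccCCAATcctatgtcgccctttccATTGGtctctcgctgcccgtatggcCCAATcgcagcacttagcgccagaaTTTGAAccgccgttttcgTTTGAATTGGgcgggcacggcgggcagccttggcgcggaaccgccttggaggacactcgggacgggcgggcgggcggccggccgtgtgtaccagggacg
Spc25: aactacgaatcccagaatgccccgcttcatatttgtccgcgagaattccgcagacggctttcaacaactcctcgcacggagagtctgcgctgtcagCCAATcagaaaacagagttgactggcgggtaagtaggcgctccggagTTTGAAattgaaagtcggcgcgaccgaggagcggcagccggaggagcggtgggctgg
Tacc3: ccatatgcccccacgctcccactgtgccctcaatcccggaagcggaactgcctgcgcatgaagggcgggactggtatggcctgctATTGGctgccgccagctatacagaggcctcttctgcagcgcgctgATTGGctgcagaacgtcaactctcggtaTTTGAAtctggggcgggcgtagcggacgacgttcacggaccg
Ccnb1: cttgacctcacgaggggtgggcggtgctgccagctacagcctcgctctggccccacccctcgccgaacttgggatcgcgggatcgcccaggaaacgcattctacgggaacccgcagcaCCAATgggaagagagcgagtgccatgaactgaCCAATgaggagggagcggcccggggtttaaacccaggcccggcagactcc
Stmn1: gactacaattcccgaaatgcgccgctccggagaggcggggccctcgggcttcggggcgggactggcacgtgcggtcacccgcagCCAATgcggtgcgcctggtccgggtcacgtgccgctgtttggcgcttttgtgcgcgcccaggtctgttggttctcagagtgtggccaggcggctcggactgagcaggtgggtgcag

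Mki67, Spc25 and Tacc3 carried both kinds of match. Anln had CHR letters on both strands close to its start and no CCAAT box. Ccnb1 and Stmn1 had CCAAT boxes and no CHR match within these windows. One CHR match of Mki67 overlaps a CCAAT box read on the other strand. Over the 38 promoters of mitosis genes, 26 (68.4%) held CHR letters, against 19.7% of all 33469 promoters in the RefSeq table. A CCAAT box stood in 29 (76.3%), against 37.5% of all promoters, and both in 22 (57.9%), against 7.95%. The 6 promoters of genes that fell gave shares near those of the 38: 4 (66.7%) held CHR letters, 5 (83.3%) a CCAAT box and 3 (50%) both. At least 2 CCAAT boxes stood in 19 promoters (50%), against 11.2% of all. Of 35 CHR matches, 22 began within 100 bases before the start. Of 67 CCAAT boxes, 32 began within those 100 bases and 34 began 101 to 250 bases before the start. The farther stretch is the longer of these, so CCAAT boxes too were denser close to the start. Positions were not counted over all promoters, so whether this is particular to mitosis genes was not tested. Aurka, Bub1, Gtse1 and both Kif2c promoters held neither. The median GC content was 58.3% in the promoters of mitosis genes against 51.7% over all promoters. A match is not a bound site.

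**Figure D1:**
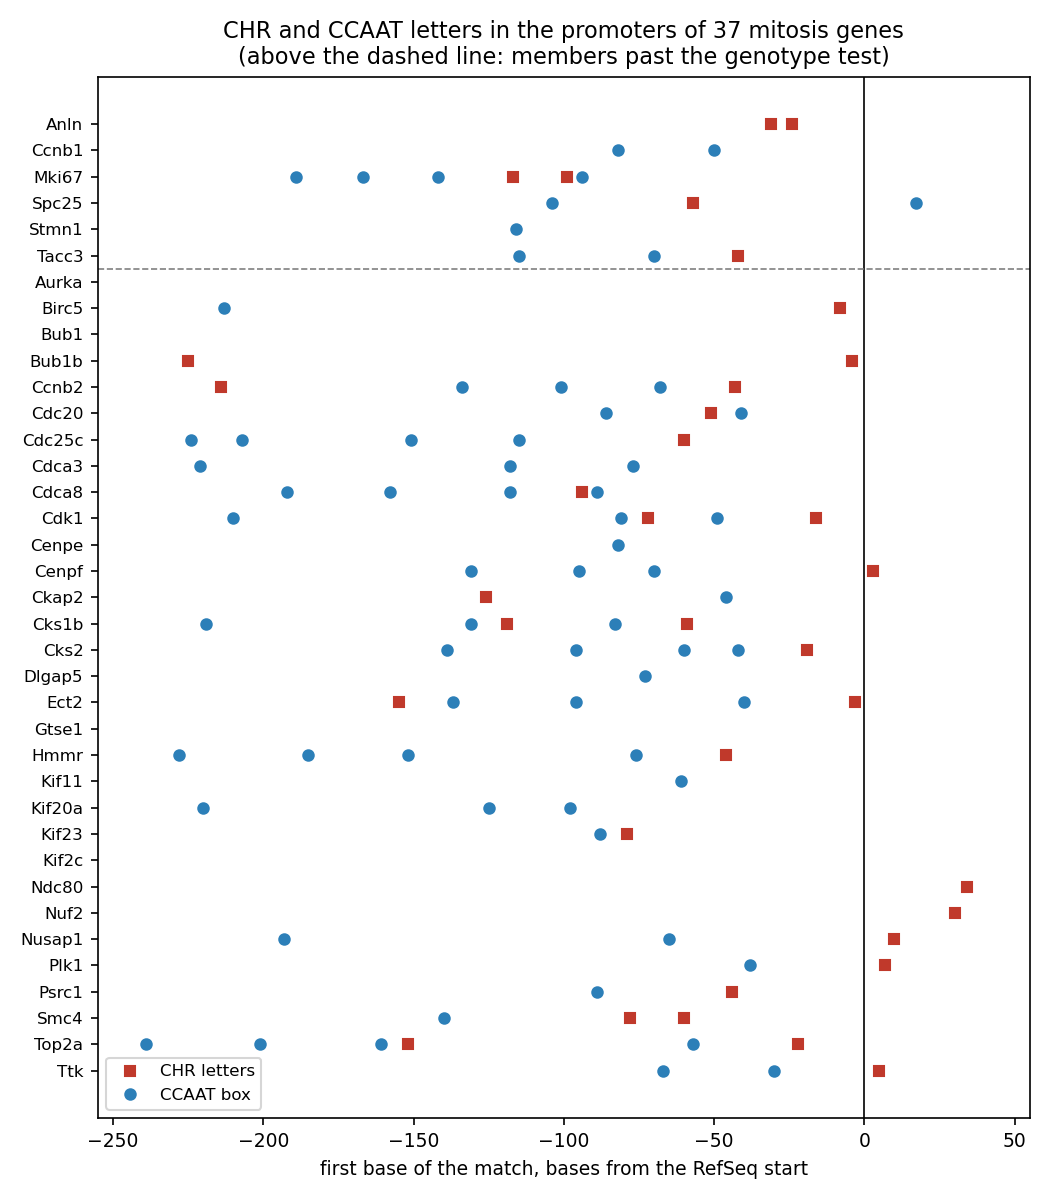
Positions of CHR letters (squares) and CCAAT boxes (circles) in the RefSeq promoters of 37 mitosis genes, with the first base of each match in bases from the start on the x axis and 1 gene per row, genes past the genotype test on top. Of 35 CHR matches, 22 lie in the last 100 bases before the start, and positions over all promoters were not counted.

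The 41 mitosis genes together took a small and uneven part of the mRNA. Their summed level was 131, 183, 201 and 184 CPM in the AmeloD libraries pCMV6.ODAM TGF, pCMV6 TGF, pCMV6.ODAM N and pCMV6 N, against 206, 196, 242 and 279 CPM in the Control libraries in the same order. All lists of 4 values below keep that order. The AmeloD mean was 175 ± 30.0 CPM and the Control mean 231 ± 37.8 CPM (SD, n = 4 each). AmeloD was the lower library of each matched pair, but the groups overlapped, since the AmeloD pCMV6.ODAM N library stood above the Control pCMV6 TGF library. The TGF libraries averaged 179 ± 33.0 CPM and the N libraries 226 ± 42.7 CPM. The pCMV6.ODAM libraries averaged 195 ± 46.1 CPM and the pCMV6 libraries 210 ± 46.1 CPM. Cdca8, Ccnb1 and Anln gave the largest share of the sum, and without them it was 116 ± 19.5 CPM in AmeloD and 152 ± 19.0 CPM in Control libraries.

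**Figure D2:**
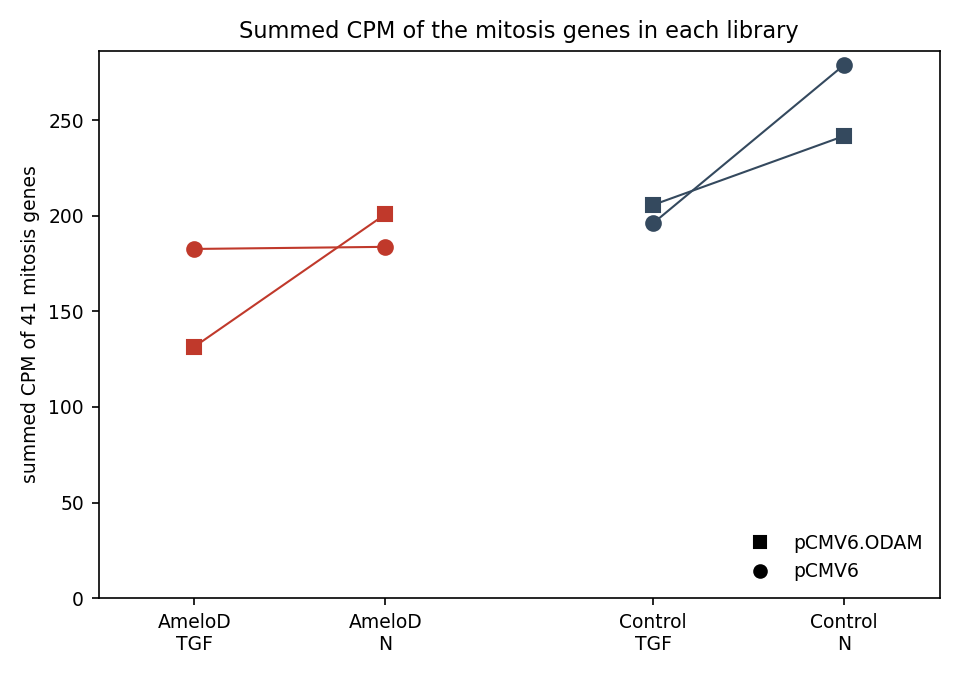
Summed CPM of the 41 mitosis genes (y axis) in each of the 8 libraries, with genotype and TGF label on the x axis and lines joining libraries that differ only in the TGF label. The lowest library is AmeloD pCMV6.ODAM TGF at 131 CPM and the highest Control pCMV6 N at 279 CPM.

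Of the 41 genes, 28 reached 1 CPM in at least 4 libraries and were tested. In AmeloD against Control libraries 7 of the 28 fell: Stmn1, Mki67, Anln, Spc25, Tacc3, Ccnb1 and Nudc. None rose and 21 did not pass the test, which was limma's moderated test on log2(CPM + 1) with an additive model and Benjamini-Hochberg adjustment over 6849 genes at 0.05. Over all tested genes 4.75% fell and 9.07% rose, against 25% of the mitosis genes lower and 0 higher. With TMM scaling the calls over all tested genes split as 474 lower and 532 higher, and with libraries set to the same median as 510 lower and 490 higher, against 325 lower and 621 higher as deposited. At an unadjusted p under 0.05, 14 mitosis genes were lower and 0 higher, where 9.97% of all tested genes were lower and 17.0% higher. The log2 fold change was below 0 for 25 of the 28, against 43.0% of all tested genes, and its median was -0.37, against 0.05 over all tested genes. The falls spread over the roles: 1 of 3 tested genes of the cyclin-CDK engine, 1 of 4 of the kinetochore, 3 of 9 spindle motor or microtubule proteins, 1 of 3 of cytokinesis and 1 of 3 of chromosome structure. None of the 2 mitotic kinases, the 3 tested genes of the chromosomal passenger complex or Ube2c passed.

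Stmn1 encodes stathmin, which takes up free tubulin and makes microtubules shrink. It had 2.19, 2.22, 5.12 and 2.18 CPM in AmeloD libraries, against 5.72, 5.51, 10.02 and 4.88 CPM in Control libraries. In both genotypes the pCMV6.ODAM N library stood highest, and that AmeloD library alone reached into the Control range. The means were 2.93 ± 1.46 and 6.53 ± 2.35 CPM, and the log2 fold change was -0.96 ± 0.19 (SE; limma adjusted p = 0.000792), the largest of the 28. Tacc3 encodes a partner of the microtubule polymerase ch-TOG at the spindle. It had 1.17, 1.76, 1.11 and 2.08 CPM in AmeloD libraries, against 2.73, 2.36, 2.71 and 3.25 CPM in Control libraries. All AmeloD values lay below all Control values, and the log2 fold change was -0.59 ± 0.18 (SE; limma adjusted p = 0.032). Nudc encodes a dynein-associated co-chaperone. It had 9.00, 14.8, 7.79 and 10.3 CPM in AmeloD libraries, against 14.6, 14.6, 14.7 and 13.1 CPM in Control libraries. The AmeloD pCMV6 TGF library stood slightly above every Control library, and the other AmeloD libraries lay below every Control library. The log2 fold change was -0.45 ± 0.15 (SE; limma adjusted p = 0.0454).

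The other microtubule genes tested were Tpx2, Nusap1, Hmmr, Dlgap5, Ckap2 and Gtse1, and none passed. Nusap1, which bundles spindle microtubules, averaged 6.97 ± 1.44 CPM in AmeloD and 9.60 ± 2.23 CPM in Control libraries (SD, n = 4 each; limma adjusted p = 0.0761). Tpx2, the activator of Aurora A on the spindle, averaged 8.01 ± 1.93 CPM in AmeloD and 7.51 ± 1.08 CPM in Control libraries. Gtse1, a microtubule-binding inhibitor of the depolymerase MCAK, was the 1 tested gene with a higher value in AmeloD in all 4 matched pairs, while 11 tested genes were lower in all 4. Its means were 2.16 ± 0.738 CPM in AmeloD and 1.49 ± 0.450 CPM in Control libraries, with limma adjusted p = 0.24. The counts over matched pairs were not made over all tested genes, so there is no share to set them against.

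Mki67 encodes Ki-67, the protein coat of mitotic chromosomes and the common marker of cycling cells. It had 4.61, 8.87, 7.86 and 9.94 CPM in AmeloD libraries, against 12.7, 11.7, 13.3 and 16.5 CPM in Control libraries. The groups did not overlap, and within each genotype pCMV6 N was the highest library. The means were 7.82 ± 2.30 and 13.5 ± 2.06 CPM (SD, n = 4 each), and the log2 fold change was -0.75 ± 0.15 (SE; limma adjusted p = 0.00111). The other genes of chromosome structure did not pass. Top2a, which untangles sister DNA, had 5.78, 7.30, 9.05 and 5.96 CPM in AmeloD libraries, against 8.45, 8.66, 7.11 and 12.0 CPM in Control libraries (limma adjusted p = 0.225). Smc4, a condensin subunit, had 8.34, 10.8, 9.79 and 11.3 CPM in AmeloD libraries, against 13.4, 9.23, 11.5 and 12.6 CPM in Control libraries (limma adjusted p = 0.438). Whether the Mki67 and Top2a differences are unlike was not tested.

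Ccnb1 encodes cyclin B1, the partner of CDK1 at mitotic entry. It had 12.1, 16.6, 20.7 and 20.2 CPM in AmeloD libraries, against 21.3, 21.0, 29.8 and 27.1 CPM in Control libraries. The groups did not overlap, though the highest AmeloD and lowest Control libraries were close. The log2 fold change was -0.50 ± 0.13 (SE; limma adjusted p = 0.00806). Ccna2, cyclin A2, averaged 3.79 ± 1.53 CPM in AmeloD and 5.76 ± 1.63 CPM in Control libraries (limma adjusted p = 0.0783). Cks1b, a small CDK-binding subunit, averaged 7.19 ± 1.05 CPM in AmeloD and 7.55 ± 0.820 CPM in Control libraries (limma adjusted p = 0.838).

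Anln encodes anillin, which links actin, myosin and septins in the cleavage ring. It had 9.80, 9.52, 18.5 and 12.2 CPM in AmeloD libraries, against 16.8, 13.7, 22.6 and 32.4 CPM in Control libraries. The AmeloD library was the lower of each matched pair, but the groups overlapped, since the AmeloD pCMV6.ODAM N library stood above both Control TGF libraries. The log2 fold change was -0.70 ± 0.15 (SE; limma adjusted p = 0.0019). Ect2, the exchange factor that activates RhoA at the furrow, averaged 1.74 ± 0.978 CPM in AmeloD and 3.07 ± 1.13 CPM in Control libraries (limma adjusted p = 0.0683). Kif23, the centralspindlin motor, averaged 5.99 ± 0.920 CPM in AmeloD and 5.84 ± 0.749 CPM in Control libraries (limma adjusted p = 0.942).

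**Figure D3:**
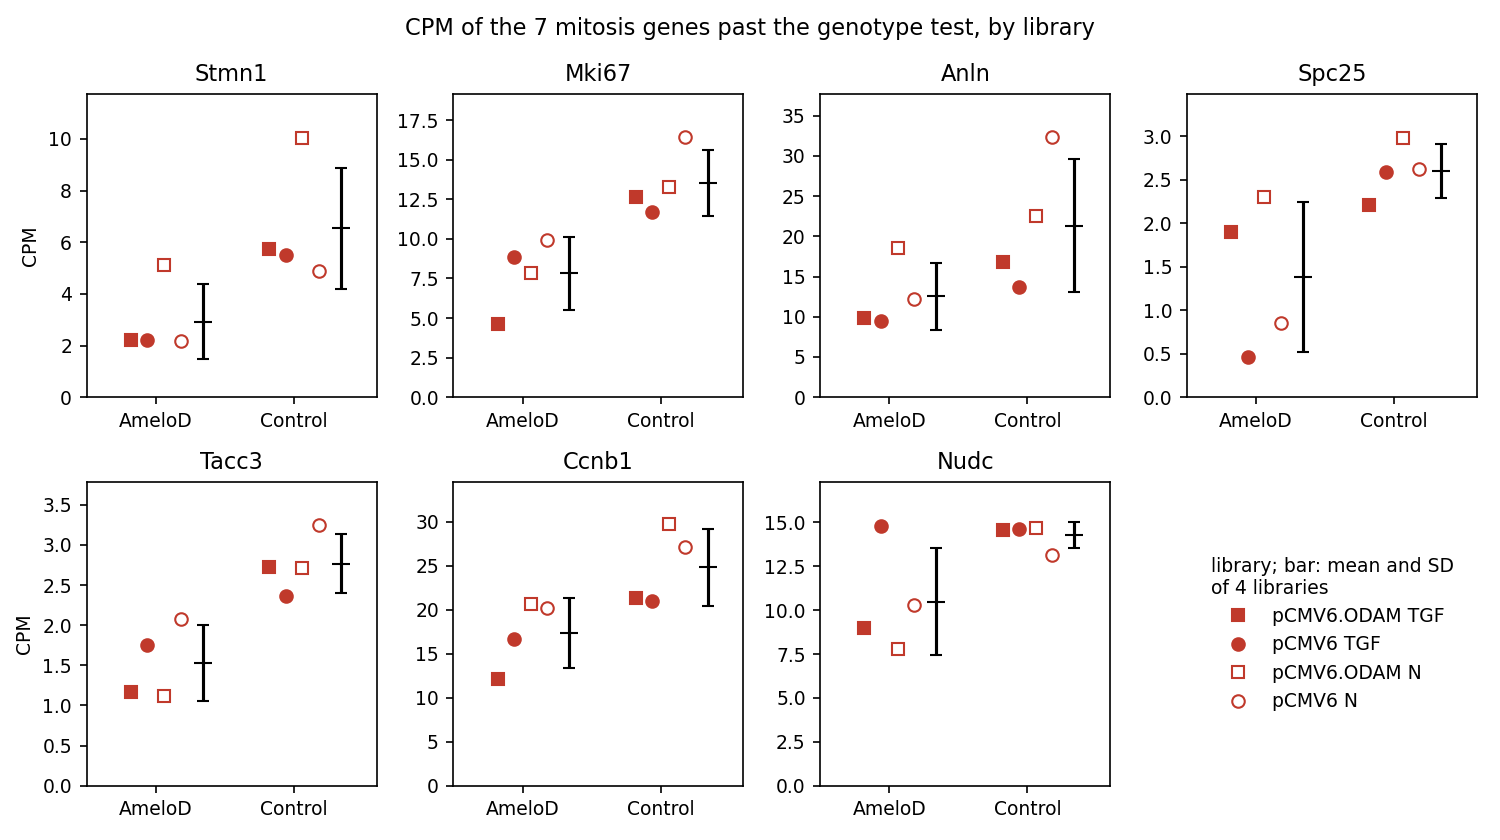
CPM (y axis, from 0) of the 7 mitosis genes past the genotype test in the 4 AmeloD and 4 Control libraries; filled symbols are TGF and open symbols N libraries, squares pCMV6.ODAM and circles pCMV6, and bars give mean and SD of 4 libraries. Mki67, Tacc3 and Ccnb1 show no overlap between the genotypes, and in Nudc the AmeloD pCMV6 TGF library stands slightly above every Control library.

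Spc25 encodes a subunit of the NDC80 complex, the kinetochore's grip on microtubules. It had 1.90, 0.462, 2.30 and 0.852 CPM in AmeloD libraries, against 2.21, 2.59, 2.98 and 2.63 CPM in Control libraries. The pCMV6 libraries were the low ones within AmeloD, and the highest AmeloD value passed the lowest Control value. The log2 fold change was -0.67 ± 0.20 (SE; limma adjusted p = 0.0258), on 71 reads in AmeloD and 166 in Control libraries. Its partner Spc24, 1 of the further mitosis genes described below, was also lower and passed. Spc24 averaged 6.18 ± 0.945 CPM in AmeloD and 8.97 ± 1.59 CPM in Control libraries (limma adjusted p = 0.0311). Ndc80 was lower in AmeloD in all 4 matched pairs but did not pass. Ndc80 averaged 1.62 ± 0.608 CPM in AmeloD and 2.74 ± 0.742 CPM in Control libraries (limma adjusted p = 0.0751), and Nuf2 was too low to test, with 54 reads in AmeloD and 62 in Control libraries. Cenpe, a kinetochore motor, averaged 3.06 ± 0.558 CPM in AmeloD and 4.22 ± 0.990 CPM in Control libraries (limma adjusted p = 0.206). Cenpf, a large outer kinetochore protein, averaged 4.31 ± 1.85 CPM in AmeloD and 4.77 ± 0.829 CPM in Control libraries (limma adjusted p = 0.581).

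The kinases and the passenger complex did not pass. Plk1, the Polo-like kinase of mitotic entry, had 1.24, 2.31, 1.11 and 1.14 CPM in AmeloD libraries, against 2.79, 1.80, 2.71 and 3.004 CPM in Control libraries, with only the AmeloD pCMV6 TGF library inside the Control range (limma adjusted p = 0.0626). Aurka, the spindle pole Aurora kinase, had 3.15, 4.62, 4.60 and 2.93 CPM in AmeloD libraries, against 4.81, 5.01, 2.03 and 6.26 CPM in Control libraries (limma adjusted p = 0.721). The values of Aurka overlap widely. Aurkb, the catalytic subunit of the passenger complex, had 0.219, 0.370, 1.19 and 1.23 CPM in AmeloD libraries, against 1.10, 0.900, 0.880 and 1.88 CPM in Control libraries (limma adjusted p = 0.247). Its partner Birc5, survivin, had 5.41, 7.11, 11.0 and 6.34 CPM in AmeloD libraries, against 5.91, 8.72, 6.77 and 13.8 CPM in Control libraries (limma adjusted p = 0.586). Cdca8, borealin, had 21.6, 30.8, 30.2 and 30.7 CPM in AmeloD libraries, against 26.0, 25.1, 38.3 and 40.6 CPM in Control libraries (limma adjusted p = 0.404). Ube2c, the ubiquitin-conjugating enzyme of the anaphase-promoting complex, had 1.90, 1.20, 2.08 and 1.89 CPM in AmeloD libraries, against 2.14, 2.42, 2.57 and 3.25 CPM in Control libraries. Those Ube2c values do not overlap, yet its limma adjusted p was 0.176. In all, 4 of the 28 genes (Mki67, Ccnb1, Ube2c and Tacc3) had every AmeloD library below every Control library, against 5.53% of all tested genes, and 0 had every AmeloD library above, against 9.49%.

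**Figure D4:**
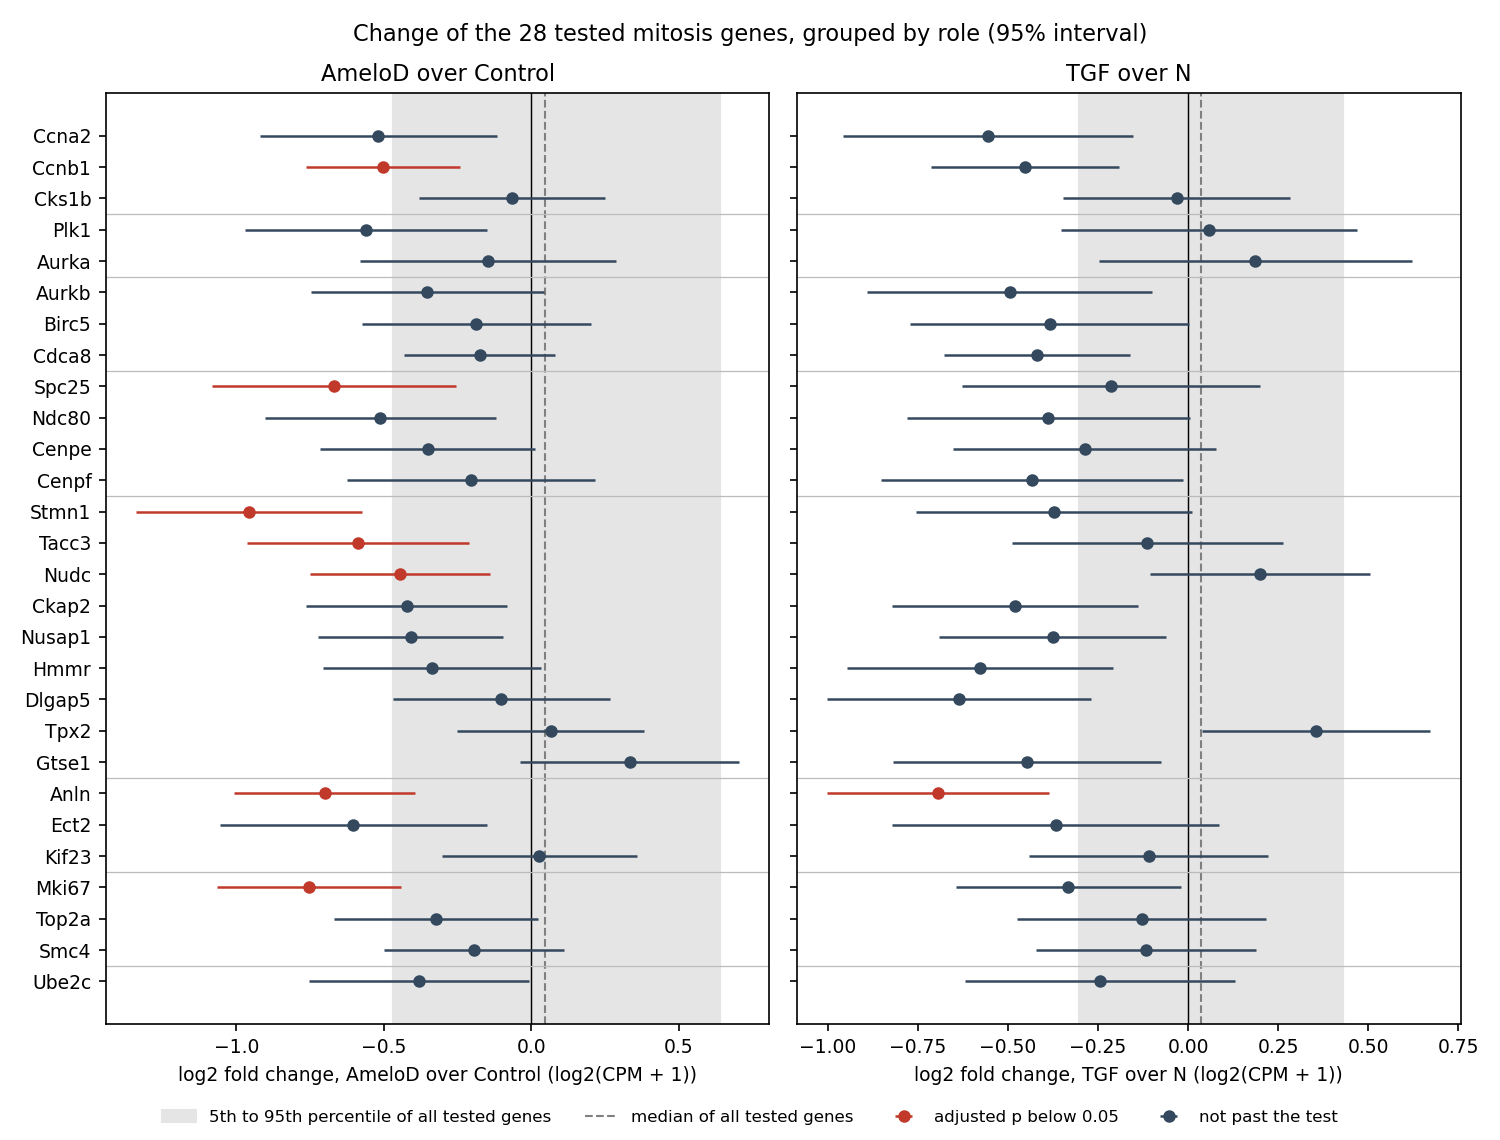
Log2 fold change on the log2(CPM + 1) scale (x axis) of the 28 tested mitosis genes, grouped by role down the page, with AmeloD over Control on the left and TGF over N on the right; bars are 95% intervals, red points pass limma's adjusted p of 0.05, and the grey band holds the 5th to 95th percentile of all tested genes. On the left 25 of 28 points lie below 0, and on the right 24 of 28.

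How firm the 7 falls were differed. Stmn1, Mki67, Anln and Ccnb1 passed with any single library left out, with limma adjusted p up to 0.0101, 0.0105, 0.0278 and 0.0468. Nudc missed the threshold without any 1 of 6 libraries (all but the pCMV6 TGF library of each genotype), with limma adjusted p up to 0.254. Spc25 missed it without any pCMV6 library of either genotype, up to 0.159. Tacc3 missed it without the AmeloD pCMV6.ODAM N, AmeloD pCMV6.ODAM TGF, Control pCMV6 N, Control pCMV6.ODAM N or Control pCMV6.ODAM TGF library, up to 0.13. edgeR's quasi-likelihood test on the recovered reads called 10 mitosis genes lower and 0 higher, against 6.4% and 7.58% of all tested genes, and DESeq2 called 7 lower and 0 higher, against 5.3% and 6.04%. The 7 genes were among the calls of both, and edgeR added Ckap2, Nusap1 and Plk1.

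The 13 genes too low to test are given by their reads, without a test. The ratios below are AmeloD over Control reads per library total, with exact 95% intervals that cover counting error only. The ratio was under 1 for 8 of the 13, and the interval lay below 1 for 3 and above 1 for 0. The same counts were not made over all genes too low to test, so there is no share to set these against. Kif2c, the microtubule depolymerase MCAK, had 11 reads in AmeloD and 52 in Control libraries, a ratio of 0.278 (0.131 to 0.540), and 28 of its Control reads came from pCMV6 N. Cdca3, an adaptor of a ubiquitin ligase that acts on the mitosis inhibitor WEE1, had 30 and 92 reads, a ratio of 0.429 (0.274 to 0.654). Ccnb2, cyclin B2, had 20 and 47 reads, a ratio of 0.560 (0.314 to 0.964). Cdc20, the activator of the anaphase-promoting complex, had 0.0732, 0.739, 0.742 and 0.0946 CPM in AmeloD libraries, against 0.195, 0.844, 1.08 and 0.563 CPM in Control libraries. Its 20 and 43 reads gave a ratio of 0.612 (0.341 to 1.06).

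Cdk1, the kinase that drives mitosis, had a ratio above 1 on few reads. It had 0.219, 1.39, 1.04 and 0.757 CPM in AmeloD libraries, against 0.520, 0.900, 0.203 and 1.06 CPM in Control libraries, a ratio of 1.20 (0.760 to 1.88) from 40 and 44 reads. The interval of Cdk1 spans changes in both directions. Ttk, the checkpoint kinase MPS1, had 50 and 62 reads, a ratio of 1.06 (0.717 to 1.57), and Nuf2 a ratio of 1.15 (0.781 to 1.68). Kif20a, a cytokinesis motor, had a ratio of 1.26 (0.819 to 1.94), and Cdc25c, a phosphatase that switches on CDK1, had 13 and 7 reads and a ratio of 2.45 (0.907 to 7.24). The checkpoint proteins Bub1 and Bub1b, the spindle motor Kif11 and the microtubule regulator Psrc1 had ratios of 0.638, 0.790, 0.674 and 0.752, all with intervals that include 1.

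**Figure D5:**
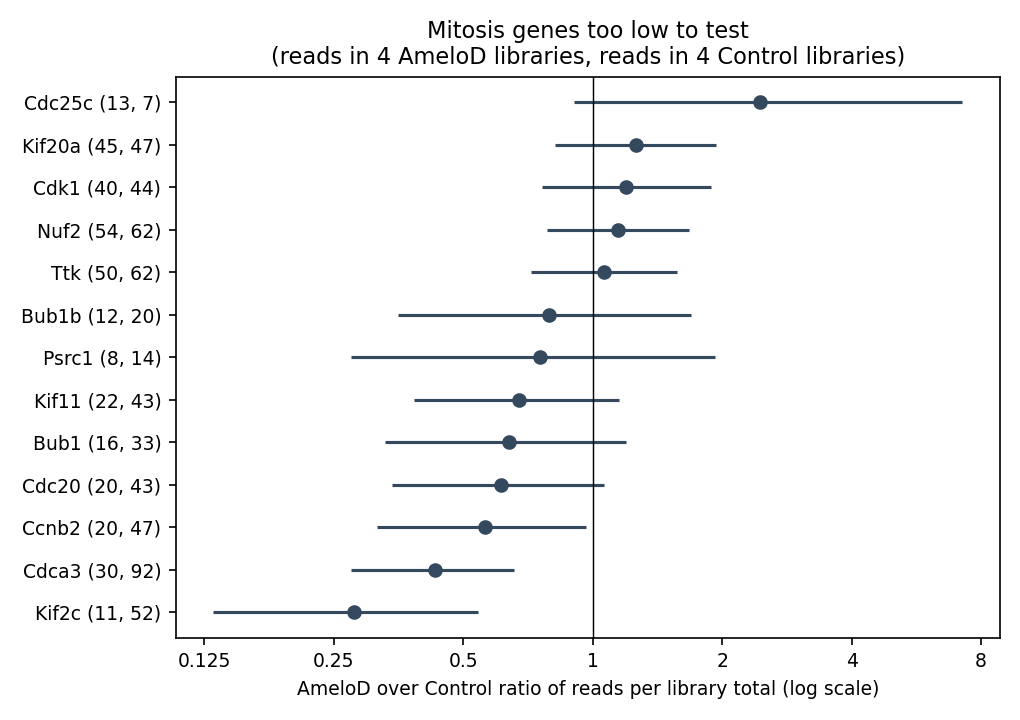
Ratio of AmeloD over Control reads per library total (x axis, log scale) for the 13 mitosis genes too low to test, with exact 95% counting intervals and the reads of the 4 AmeloD and then the 4 Control libraries beside each name. Kif2c, Cdca3 and Ccnb2 have intervals below 1, and Cdk1 lies at 1.20.

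In TGF against N libraries 1 of the 28 genes fell, Anln, and none rose, in a comparison where limma called 0.277% of all tested genes lower and 1.53% higher. Anln had 9.80 and 9.52 CPM in the AmeloD and 16.8 and 13.7 CPM in the Control TGF libraries, against 18.5 and 12.2 CPM in the AmeloD and 22.6 and 32.4 CPM in the Control N libraries, each as pCMV6.ODAM then pCMV6. The TGF library was the lower of each matched pair, and the TGF and N values overlap. The means were 12.4 ± 3.45 CPM with TGF and 21.4 ± 8.45 CPM with N (SD, n = 4 each), and the log2 fold change was -0.69 ± 0.15 (SE; limma adjusted p = 0.0106). Without the AmeloD pCMV6.ODAM N, Control pCMV6 N or Control pCMV6 TGF library its limma adjusted p was 0.105, 0.111 and 0.0679. At an unadjusted p under 0.05, 12 mitosis genes were lower and 1 (Tpx2) higher, where 3.20% of all tested genes were lower and 8.72% higher. The log2 fold change was below 0 for 24 of the 28, against 41.8% of all tested genes, with a median of -0.37 against 0.04. edgeR called 2 lower (Anln and Ccnb1) and 0 higher, against 0.38% and 1.15% of all tested genes, and DESeq2 called 3 lower (also Cdca8) and 0 higher, against 0.453% and 1.1%.

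Dlgap5, which steadies spindle fibres at the kinetochore, was the 1 tested gene with every TGF library below every N library, against 1.15% of all tested genes, and 0 had every TGF library above, against 3.11%. It had 1.39, 1.48, 1.43 and 2.19 CPM in TGF libraries (AmeloD pCMV6.ODAM and pCMV6, then Control likewise), against 3.04, 3.03, 2.98 and 3.13 CPM in N libraries. The N libraries lay close together, and the limma adjusted p was 0.0757. By genotype it averaged 2.23 ± 0.925 CPM in AmeloD and 2.43 ± 0.785 CPM in Control libraries (limma adjusted p = 0.777). Ccnb1 averaged 17.8 ± 4.36 CPM in TGF and 24.4 ± 4.77 CPM in N libraries (limma adjusted p = 0.0758), and Cdca8 25.9 ± 3.79 CPM in TGF and 34.9 ± 5.29 CPM in N libraries (limma adjusted p = 0.101). Hmmr, a spindle and hyaluronan-binding protein, averaged 1.34 ± 0.563 CPM in TGF and 2.46 ± 0.531 CPM in N libraries (limma adjusted p = 0.121). Tpx2 averaged 8.83 ± 1.08 CPM in TGF and 6.69 ± 0.907 CPM in N libraries, the highest log2 fold change of the 28 at 0.36 ± 0.15 (SE; limma adjusted p = 0.339). Plk1 and Aurka, with means of 2.04 ± 0.667 and 4.40 ± 0.848 CPM in TGF and 1.99 ± 1.01 and 3.96 ± 1.87 CPM in N libraries, also had log2 fold changes above 0.

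The plasmid label called no mitosis gene with limma, edgeR or DESeq2. Over all tested genes limma and edgeR called 0% in each direction, and DESeq2 called 0.0146% lower. At an unadjusted p under 0.05, limma had 1 mitosis gene lower (Mki67) and 2 higher (Stmn1 and Spc25), where 2.01% of all tested genes were lower and 4.61% higher. The smallest limma adjusted p was 0.710, and the log2 fold changes ran between -0.34 and 0.47. They were below 0 for 22 of the 28, against 43.1% of all tested genes, with a median of -0.13 against 0.03. So a count of signs leaned to 1 side for this label too, where no gene was called.

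Whether the genotype difference was unlike in TGF and N libraries was tested with an interaction term. No mitosis gene passed with limma or edgeR, and 0 had an unadjusted p under 0.05; limma called 0.0146% of all tested genes, in the lower direction. Within TGF libraries 2 of the 28 were lower in AmeloD (Mki67 and Stmn1) and 0 higher, against 1.61% and 3.5% of all tested genes, with a median log2 fold change of -0.35. Within N libraries 2 were lower (Anln and Stmn1) and 0 higher, against 2.12% and 4.51%, with a median of -0.37. The TGF effect called 0 mitosis genes within AmeloD, against 0.117% lower and 0.73% higher of all tested genes, and 0 within Control, against 0.0292% and 0.423%. At an unadjusted p under 0.05, limma had 8 lower and 1 higher within AmeloD, and 5 lower and 0 higher within Control. Of all tested genes 3.14% were lower and 7.30% higher at that limit within AmeloD, and 1.52% and 4.34% within Control. The genotype by plasmid and TGF by plasmid terms called 0 mitosis genes and 0% of all tested genes with limma and edgeR. At an unadjusted p under 0.05, limma's genotype by plasmid term had Nudc lower and Birc5 and Spc25 higher, and its TGF by plasmid term had Stmn1 lower. Over all tested genes these shares were 2.44% lower and 2.06% higher for genotype by plasmid, and 0.905% lower and 6.45% higher for TGF by plasmid.

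Other genes of the same process, listed from textbook roles, moved with genotype in part. Over all tested genes 4.75% were lower in AmeloD and 9.07% higher. Of 87 further mitosis genes, 83 had a row and 48 were tested, with 12 lower in AmeloD, 2 higher, 34 not past the test and a median log2 fold change of -0.21. The shugoshins Sgo1 and Sgo2, which guard centromeric cohesin, gave -1.20 ± 0.15 and -1.06 ± 0.16 (SE; limma adjusted p = 3.27e-06 and 5.2e-05). Trip13, the ATPase that recycles checkpoint protein MAD2, gave -0.84 ± 0.19 (SE; limma adjusted p = 0.00376). Anapc2, the cullin subunit of the anaphase-promoting complex, gave 0.76 ± 0.20 and Cenpm, a constitutive centromere protein, 0.59 ± 0.17 (SE; limma adjusted p = 0.0109 and 0.0219). Of 52 DNA replication genes 34 were tested, with 9 lower, 1 higher, 24 not past the test and a median of -0.37. Rrm2, a ribonucleotide reductase subunit, the helicase subunit Mcm3 and the origin factor Orc6 gave log2 fold changes of -0.91, -0.78 and -0.76, and Ccne1, cyclin E1, 0.75. The filter of 1 CPM in 4 libraries could be met by 1 genotype alone, so some calls are of genes admitted by the genotype where they are high. Cenpu, 1 of the 12, averaged 0.386 ± 0.155 CPM in AmeloD and 1.29 ± 0.218 CPM in Control libraries. Trip13 and Mcm3 averaged 0.721 and 0.904 CPM in AmeloD libraries. The shares over all tested genes used the same filter. With TGF, 0 of the 48 and 0 of the 34 passed in either direction, with medians of -0.11 and -0.10. Only 0.277% of all tested genes were lower with TGF and 1.53% higher, so lists of this size would hold few calls.

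Of the dental epithelium markers 5 were tested, with 4 higher in AmeloD, 0 lower and 1 not past the test, where 9.07% of all tested genes were higher. Cdh1, Krt17 and Epcam gave log2 fold changes of 0.74 ± 0.19, 0.65 ± 0.08 and 0.65 ± 0.13 (SE; limma adjusted p = 0.00791, 4.86e-06 and 0.00153). Among markers of other cell types Col3a1 and Cd68 passed the genotype test. The 12 mesenchymal and fibroblast markers summed to 18.5 to 28.4 CPM in AmeloD and 35.1 to 66.9 CPM in Control libraries, and 1 of the 2 tested, Col3a1, was lower and gave 978 of the reads in AmeloD and 2938 in Control libraries, with Col1a2, Dcn, Lum, Thy1 and Pdgfrb at 0 reads. The 9 leukocyte markers summed to 2.96 to 4.17 CPM in AmeloD and 0.939 to 1.75 CPM in Control libraries, and the 1 tested, Cd68, was higher, with Lyz2 and Adgre1 at 0 reads. The endothelial markers summed to 0.593 to 2.05 CPM in AmeloD and 1.01 to 2.01 CPM in Control libraries, and odontoblast and bone markers to 0.146 to 0.832 CPM in AmeloD and 0.169 to 0.520 CPM in Control libraries. Their part in the falls of mitosis genes, and that of the shallower AmeloD libraries, was not tested. By annotation, exons of 6 mitosis genes overlap a gene on the opposite strand: Anln with Matcap2, Aurka with Fam210b, Ccna2 with Exosc9, Kif20a with Cdc23, Smc4 with Trim59 and Ube2c with Tnnc2. The sources used here do not give the strand setting of the counting, so reads of such a pair may not be told apart. Over all libraries Kif20a had 92 reads and Cdc23 167, Ccna2 545 and Exosc9 151, and Smc4 1223 and Trim59 280. Anln had 1967 and Matcap2 32, Aurka 479 and Fam210b 53, and Ube2c 253 and Tnnc2 16.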

How the data were processed

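Messenger RNA of 8 SF2 libraries was read with a 3' kit and paired ends, per the labels' protocols. Reads were trimmed with Trim Galore 0.6.7, Trimmomatic 0.39 and cutadapt 3.7, aligned to mRatBN7.2 with STAR 2.7.10a and counted with featureCounts 2.0.1, and DESeq2 1.20.0 was also run, per the submitters' processing notes. The sources used here do not give the use of molecular identifiers, the strand setting or the treatment of shared reads. The authors deposited 1 table of CPM, scaled to library totals of which 15.6% to 17.5% lie in the table. All values (100%) were whole reads within 0.01.

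Tests used limma 3.58.1 in R 4.3.3 (eBayes with trend, two-sided) on log2(CPM + 1), with additive terms for genotype, plasmid and TGF across the 8 libraries. A gene needed 1 CPM in any 4 libraries, which the 4 libraries of 1 genotype could give alone. The fold change on this scale understates the change of low genes. With 4 residual degrees of freedom (3 with an interaction term), interactions and spread are estimated together. limma also pools the spread of a gene with that of genes of like level, so its p-values and SE rest only in part on the gene's own values. Without the trend, the limma adjusted p was 0.105 for Nudc with genotype and 0.110 for Anln with TGF. Alternatives were edgeR 4.0.16 and DESeq2 1.42.0 on recovered reads, other pseudocounts, filters and scalings, and leaving out each library. Matched pairs are libraries unlike in 1 factor alone. Symbols matched exactly.

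Every gene past a test is named with each library's value, and Mki67, Top2a, Cdk1, Ccnb1, Plk1, Aurka, Aurkb, Birc5, Cdc20 and genes averaging 10 CPM are always named with values. Of other lists, up to 3 genes each way past the genotype test are named. Other values named, such as Dlgap5, Spc24, Cenpu and the CDK inhibitors, were chosen after they were seen. The mitosis genes and the lists were chosen with earlier results of these data known. Reads may share a molecule, so intervals and floors hold counting error alone.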

Additional observations from a re-analysis of the deposited data

How the results depend on the processing

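Of the 7 falls with genotype among 28 tested genes, edgeR (10), DESeq2 (7), pseudocounts of 0.5 and 2 (7 each), eBayes without trend (6) and scaling to the reads inside the table (7, chosen after seeing the data) gave like counts. Over all 6849 tested genes limma called 326 and 324 lower with the pseudocounts, 231 without trend and 373 with that scaling. A 5 CPM filter gave 5 of only 15 tested, where 237 of 2707 genes were lower, and it left Spc25 and Tacc3 untested. The count was 4 of 41 tested with no filter, where 235 of 17287 genes were lower. It was 12 with TMM scaling, 13 with libraries set to the same median, 2 within N libraries, 2 within TGF libraries and 4 to 10 with each library left out (4 without Control pCMV6 N, 10 without AmeloD pCMV6 TGF). Over all 6849 tested genes the lower calls were 474, 510, 145, 110 and 219 to 295 in the same order. The fall of Anln with TGF (1 gene) became 0 with no filter, 2 with TMM, 3 with the same median, 2 with edgeR, 3 with DESeq2, 0 without trend, 4 per reads in the table, 0 within AmeloD, 0 within Control and 0 to 2 with each library left out. Over all tested genes the lower calls with TGF ran from 2 within Control to 36 per reads in the table. Counts for the plasmid and the interaction terms were 0 in every alternative run, and none of the called genes changed sign. TMM scaling moved the summed CPM to 174 in AmeloD and 240 in Control libraries. With TTTGAA alone, 65.8% of the mitosis promoters held CHR letters. For the TGF by plasmid term the median log2 fold change of all tested genes was 0.16 as deposited and -0.0038 with TMM. The labels give no replicate numbers, but with libraries matched in the other factors as a block (chosen after seeing the data) the counts were 7 with genotype, 1 with TGF and 0 with plasmid, and the calls were the same genes. Reads limit the 13 untested genes, which had 20 to 122 reads each over 8 libraries.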

Other observations

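Genes that hold back the cell cycle were counted from a list of 16 textbook symbols, of which 10 were tested. In AmeloD against Control libraries 3 were higher, 0 lower and 7 did not pass limma's test, where 9.07% of all tested genes were higher and 4.75% lower, with a median log2 fold change of 0.18. Gadd45b and Gadd45a, stress-induced proteins that can inhibit CDK1 in human and mouse cells, gave 0.86 ± 0.15 and 0.47 ± 0.16 (SE; limma adjusted p = 0.00017 and 0.0476). Btg1, an antiproliferative partner of the mRNA deadenylase, gave 0.47 ± 0.13 (SE; limma adjusted p = 0.0155). Among the 7 not past the test were the CDK inhibitors Cdkn1a, Cdkn1b, Cdkn2a and Cdkn2b, at 0.19, -0.05, 0.16 and 0.48 (limma adjusted p = 0.315, 0.920, 0.605 and 0.0851). Summed, the 16 genes had 153 to 175 CPM in AmeloD and 129 to 142 CPM in Control libraries, with no overlap. The highest means were those of Cdkn1a, Ccng1, Btg1 and Gadd45b. They were 38.3, 33.6, 26.4 and 21.4 CPM in AmeloD and 33.6, 33.9, 18.7 and 11.6 CPM in Control libraries. With TGF, 0 of the 10 passed, where 0.277% of all tested genes were lower and 1.53% higher.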
